A study of Mus musculus with 6 samples.

Results

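The genes described here encode scaffold and adhesion proteins of the synapse. There are 13 scaffold genes of the postsynaptic density (Dlg1 to Dlg4, Dlgap1 to Dlgap4, Shank1 to Shank3, Homer2 and Homer3). The other 25 are genes of synaptic adhesion molecules and their close relatives (neuroligins, neurexins, LRRTM proteins, netrin-G ligands, contactins, Caspr, NCAM and SynCAM proteins, Eph receptors and ephrins). Of the 38 listed genes, 35 had a probe set annotated to a single gene symbol, 12 scaffolds and 23 adhesion genes, out of 18193 genes in all. Shank2, Cadm2 and Ephb2 were not analysed here. Where a gene had several probe sets, the brightest stood for it (by its mean across the 6 arrays, irrespective of group), and no filter on low signal was applied.

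Hippocampal RNA from adult male mice was hybridised to Affymetrix Mouse Genome 430 2.0 arrays, 1 array per sample. There were 3 wild type mice and 3 mice of line L26, which is homozygous for the transgene daDREAM, a dominant active mutant of DREAM. DREAM, which Kcnip3 encodes, represses transcription in neurons until calcium binds it, and the comparison asks which transcripts differ in the unstimulated hippocampus when the mutant is present. The wild type animals were littermates, and all animals had a C57B6xCBA background. L26 is 1 transgenic line, so effects of the transgene and of its insertion site cannot be told apart, and the promoter that drives it is not given in the sources used here. The series' design text calls the 3 hybridisations of a group independent biological replicates.

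At an excitatory synapse, MAGUK proteins such as PSD-95 bind glutamate receptors and adhesion molecules through PDZ domains, SAPAP proteins link the MAGUKs to Shank proteins, and Homer proteins connect Shank to metabotropic glutamate receptors and intracellular calcium stores. Across the cleft, neuroligins, LRRTM proteins and netrin-G ligands of the postsynaptic side bind neurexins, presynaptic receptor phosphatases or netrin-G proteins. In the hippocampus these complexes set the strength and number of synapses, and several of their genes have been linked to autism and intellectual disability.

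All values are log2 signals. Array medians ran from 7.27 to 7.32, and arrays correlated at 0.9971 to 0.9979 within groups and 0.9944 to 0.9958 between groups, over all probe sets. The brightest Kcnip3 probe set had 10.32 in wild type and 10.15 in L26 (adjusted p = 0.169, limma), but whether it covers the transgene is not known, so it checks no label. The 9 markers of hippocampal pyramidal and granule neurons averaged 10.19 to 10.21 in the wild type arrays and 10.30 to 10.36 in the L26 arrays, and each of them had a group mean above the median probe set (7.30). Of these 9, 2 rose and 0 fell. General neuronal markers were at 12.89 to 12.97 in wild type and 12.90 to 12.92 in L26, and 0 of 10 passed the test. Oligodendrocyte markers lay higher in L26 (11.46 to 11.70 against 11.18 to 11.26, 11 of 13 rose), as did vascular markers (9.05 to 9.15 against 8.71 to 8.72, 8 of 13 rose). Markers of the cortical, subicular and thalamic border lay lower (9.09 to 9.15 against 9.45 to 9.50, 7 of 10 fell). In whole tissue, a smaller number of cells of a type and less RNA per cell cannot be told apart.

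Among the scaffolds, Homer3 rose in L26 and no other member passed the test. Among the adhesion genes, 0 of 23 passed. A gene is said to have risen or fallen where its adjusted p was under 0.05 (limma, Benjamini-Hochberg over all 18193 genes), a rule that called 5.19% of all genes, 2.63% higher and 2.57% lower. With 478 genes higher and 467 lower the calls were evenly split, while centring the arrays on their medians gave 382 and 690. Read against that background, 1 call among 35 members is not an excess. A difference of more than 0.2 in either direction was found in 2.86% of the members and in 12% of all genes. The 2 sets were unlike in brightness, with wild type averages of 10.24 to 10.29 for the members and 8.24 to 8.27 for all genes. Among other bright lists, the share was 0% for general neuronal, 14.3% for interneuron and 20% for astrocyte markers. It was 44.4% for hippocampal pyramidal and granule neuron markers and 84.6% for oligodendrocyte markers. The part of brightness in these shares was not tested.

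For each of the 34 members that did not pass, the 95% interval of the log2 difference, taken gene by gene, lay wholly inside 1.5-fold (0.58 on the log2 scale). The bound farthest from 0 was 0.45, a 1.37-fold change, for Dlgap2, and the median over the 34 genes was 0.23.

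**Figure D1:**
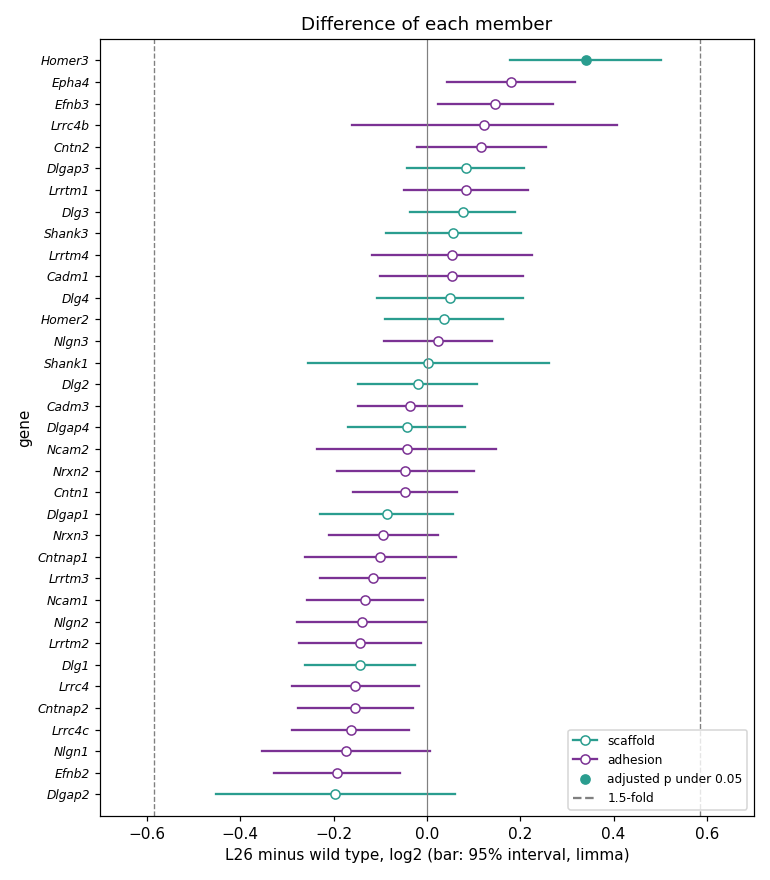
Difference in log2 signal, L26 minus wild type, for the 35 measured members, with bars for the 95% interval from the limma fit (3 arrays per group) and dashed lines at 1.5-fold. Homer3, with an interval of 0.18 to 0.50, is the only member past the adjusted threshold (filled point), and the other 34 intervals lie within the dashed lines. Some of these also lie apart from 0, such as that of Efnb2 (-0.33 to -0.06).

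Homer3 encodes a Homer protein with an EVH1 domain, which binds proline-rich stretches in metabotropic glutamate receptors and Shank proteins. Its single probe set read 8.77, 8.77 and 8.92 in the wild type arrays and 9.13, 9.07 and 9.28 in the L26 arrays. Every L26 array lay above every wild type array. The means were 8.82 ± 0.09 and 9.16 ± 0.11 (SD, n = 3), a difference of 0.34 (SE 0.07), or 1.27-fold, with an adjusted p of 0.0297 in limma. The call held without wild type replicate 3 (adjusted p = 0.0365) but was lost without any 1 of the other arrays: wild type replicate 1 (adjusted p = 0.081) or 2 (0.0913), or L26 replicate 1 (0.0671), 2 (0.0507) or 3 (0.101). The difference itself stayed between 0.28 and 0.39. No second probe set of Homer3 was at hand to set beside it, and the higher oligodendrocyte and vascular markers lay on the same L26 arrays. Their part in the Homer3 difference was not tested.

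Homer2, the other measured Homer scaffold, had 11.16, 11.30 and 11.27 in wild type and 11.28, 11.26 and 11.30 in L26. The groups overlapped, and the difference was 0.04 (95% interval -0.09 to 0.16). Its other probe sets had 0.01 and 0.17, also without passing.

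The MAGUK genes, which encode the PDZ scaffolds that anchor receptors, did not pass. Dlg4, the gene of PSD-95, read 11.15, 11.15 and 10.97 in wild type and 11.05, 11.20 and 11.17 in L26, with overlapping groups and a difference of 0.05 (95% interval -0.11 to 0.21). Its 3 probe sets were close to each other, from 0.05 to 0.07. Dlg1 read 11.45, 11.39 and 11.48 in wild type and 11.26, 11.31 and 11.32 in L26. Here each L26 array was below each wild type array, but the difference of -0.14 (SE 0.05) had an adjusted p of 0.159 in limma, and its 3 probe sets gave -0.14 to -0.13. Dlg3 lay on the other side, with 10.74, 10.70 and 10.75 in wild type and 10.84, 10.78 and 10.80 in L26, groups that did not overlap and a difference of 0.08 (SE 0.05, adjusted p = 0.441, limma). Dlg2 differed by -0.02 (95% interval -0.15 to 0.11).

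Among the SAPAP genes, which link MAGUKs to Shank, differences on the brightest probe sets ran from -0.20 to 0.08 and all groups overlapped. Dlgap2 had the most negative difference of all members, and its arrays were also the most spread out of the scaffolds within L26. It read 8.12, 8.25 and 8.06 in wild type and 7.77, 8.23 and 7.84 in L26 (adjusted p = 0.378, limma), so that L26 replicate 2 lay among the wild type arrays. Without that array the difference was -0.34 (adjusted p = 0.0661). Dlgap1 differed by -0.09 (95% interval -0.23 to 0.06), with its 6 probe sets from -0.12 to 0.22. Of these, 1429105_at (-0.12) and 1436076_at (-0.08) were separated downward and the dimmer 1438098_at (0.22) upward, without passing. Dlgap3 and Dlgap4 had 0.08 and -0.04.

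The Shank genes encode the deep layer of the postsynaptic density. Shank3 read 10.97, 10.89 and 10.99 in wild type and 11, 10.91 and 11.11 in L26, overlapping groups with a difference of 0.06 (95% interval -0.09 to 0.20). Shank1 was measured on a dim probe set near the array median, at 7.39, 7.61 and 7.18 in wild type and 7.58, 7.30 and 7.31 in L26. The wild type arrays were widely spread (SD 0.215, n = 3), and the interval of the difference ran from -0.25 to 0.26.

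**Figure D2:**
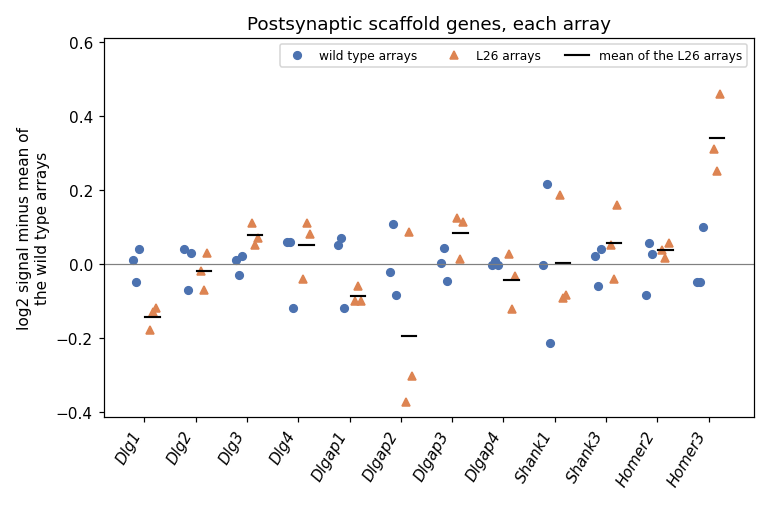
Log2 signal of the 12 measured scaffold genes in each array, minus the mean of the 3 wild type arrays (circles wild type, triangles L26, black line the L26 mean). The 3 Homer3 triangles lie above all its circles, by 0.34 on average, Dlg1 and Dlg3 are separated by smaller amounts in opposite directions, and the other genes overlap.

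The scaffolds as a whole had a median difference of 0.02 beside 0.01 over all genes, a value that turned to -0.01 beside -0.02 when arrays were centred on their medians. Of the 12, 7 had a higher and 5 a lower mean in L26, and the groups did not overlap for 2 higher genes and 1 lower gene. Over all genes, groups were separated for 24.1%, upward for 13.0% and downward for 11.0%, so these counts are close to the background.

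The adhesion genes leaned lower without a single call. Their median difference was -0.05 (-0.047 beside 0.01 over all genes), 15 of 23 had a lower mean in L26, and for 9 of 23 (39.1%) every L26 array lay below every wild type array, against 11.0% of all genes. For 2 of 23 the groups were separated upward. At an unadjusted p under 0.05 (limma), 8 were lower and 2 higher, where the background is 20.3% in all, 9.03% lower and 11.3% higher. With centred arrays the median was -0.077 beside -0.02, with 11 of 23 separated downward against 16.3% of all genes, and with repeated quantile normalization 7 of 23 against 12%. All differences were small, from -0.19 to 0.18, and counts over members are a description, since genes of 1 tissue vary together and the list was not tested as a set. Averaged over these genes, the wild type arrays read 10.23 to 10.29 and the L26 arrays 10.21 to 10.22. All genes, with no filter on low signal, averaged 8.24 to 8.27 and 8.25 to 8.27, so these shares compare genes of unlike brightness. Of the 9 separated downward, Nlgn2, Nrxn3, Lrrc4c and Ncam1 each had another probe set that was higher in L26. Lrrtm2, Lrrtm3, Lrrc4, Cntnap2 and Efnb2 were lower on all of theirs. On the same arrays the groups were separated downward for 8 of the 10 border markers (median difference -0.367) and for 17 of 55 other adhesion genes, and upward for 12 of 13 oligodendrocyte and 10 of 13 vascular markers (medians 0.407 and 0.387). General neuronal markers had a median of -0.038, with 1 of 10 separated downward and 1 upward. Interneuron markers had a median of -0.023, with 3 of 7 separated downward and 1 upward. Hippocampal pyramidal and granule neuron markers had a median of 0.173, with 2 of 9 downward and 3 upward. Separated downward and upward were 1 and 2 of 10 astrocyte, 1 and 3 of 9 microglia and 0 and 3 of 6 choroid plexus and ependyma markers. The part of these markers' cell types in the lower adhesion values was not tested.

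**Figure D3:**
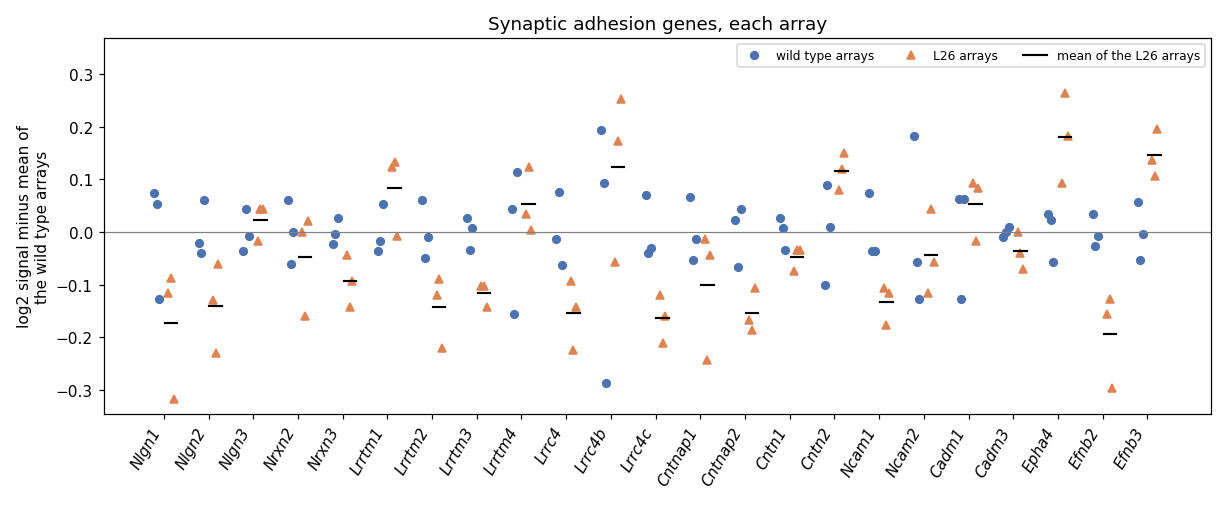
Log2 signal of the 23 measured adhesion genes in each array, minus the mean of the 3 wild type arrays (circles wild type, triangles L26, black line the L26 mean). Differences run from -0.19 for Efnb2 to 0.18 for Epha4, and for 9 genes all triangles lie below all circles.

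Ephrins and Eph receptors signal in both directions between contacting cells and shape dendritic spines. Efnb2, the gene of ephrin-B2, came nearest to the threshold of all members that missed it. It read 10.11, 10.05 and 10.07 in wild type and 9.92, 9.95 and 9.78 in L26, which do not overlap, and the difference was -0.19 (SE 0.06, adjusted p = 0.106, limma). The other 3 Efnb2 probe sets were lower too, by -0.22, -0.09 and -0.09, the first with an adjusted p of 0.0553 over probe sets. Its relative Efnb3 went the other way, from 10.40, 10.29 and 10.34 in wild type to 10.48, 10.45 and 10.54 in L26 (difference 0.15, SE 0.05, adjusted p = 0.171, limma). The receptor gene Epha4 read 11.63, 11.62 and 11.54 in wild type and 11.69, 11.86 and 11.78 in L26. Its groups did not overlap either, and the difference of 0.18 (SE 0.06) had an adjusted p of 0.132 in limma, or 0.0474 with an intensity trend and a robust prior. The other 4 Epha4 probe sets differed by -0.01 to 0.08, less than the brightest one.

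Neuroligins are postsynaptic receptors for neurexins, and Nlgn2 belongs chiefly to inhibitory synapses. Nlgn1, the form of excitatory synapses, read 10.24, 10.22 and 10.04 in wild type and 10.05, 10.08 and 9.85 in L26. The groups overlapped at 10.04 to 10.08, and the difference of -0.17 had a 95% interval of -0.35 to 0.01. Nlgn2 read 10.52, 10.50 and 10.60 in wild type and 10.41, 10.31 and 10.48 in L26, separated, with -0.14 (SE 0.06, adjusted p = 0.239, limma), but its other probe set had 0.15. Nlgn3 differed by 0.02 (95% interval -0.09 to 0.14). The presynaptic partners Nrxn2 and Nrxn3 had -0.05 and -0.09. Nrxn3 was separated, at 11.74, 11.76 and 11.79 in wild type and 11.72, 11.62 and 11.67 in L26, and its 5 probe sets spread from -0.11 to 0.19.

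LRRTM proteins are leucine-rich repeat receptors that also bind presynaptic neurexins and recruit glutamate receptors. Lrrtm3 was lower on all 4 of its probe sets, by -0.25 to -0.12. On the brightest it read 8.66, 8.60 and 8.64 in wild type and 8.53, 8.53 and 8.49 in L26, separated by a small step of -0.12 (SE 0.05, adjusted p = 0.225, limma). Lrrtm2 was likewise lower on all 3, by -0.14 to -0.04, and on the brightest it went from 10.46, 10.35 and 10.39 to 10.28, 10.31 and 10.18. Lrrtm1 was higher on all 3, by 0.07 to 0.08, with overlapping groups on the brightest. None of these genes passed.

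Lrrtm4 gave opposite values on its probe sets. The brightest, 1437214_at, differed by 0.05 with overlapping groups. On the other, 1455937_at, the wild type arrays read 8.68, 8.60 and 8.72 and the L26 arrays 8.22, 8.38 and 8.30, a fall of 0.37 (SE 0.06, 1.29-fold lower, adjusted p = 0.0138 over all 45037 probe sets, limma). Within each array, the second probe set lay 0.20, 0.08 and 0.23 below the first in wild type and 0.65, 0.58 and 0.54 below it in L26. This change of the ratio, -0.42 (SE 0.08), passed as well (adjusted p = 0.0191 over 16752 such pairs, limma, of which 2.70% passed). The fall of 1455937_at was lost without wild type replicate 3 (adjusted p = 0.0537) or L26 replicate 3 (0.0631). The change of the ratio held without wild type replicate 3 and was lost without any 1 of the other arrays (adjusted p = 0.0507 to 0.0728). Which transcripts each probe set covers is not given in the sources used here.

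The netrin-G ligands Lrrc4, Lrrc4b and Lrrc4c are postsynaptic leucine-rich repeat proteins that bind netrin-G proteins or a receptor phosphatase on the axon. Lrrc4 read 10.03, 10.12 and 9.98 in wild type and 9.95, 9.82 and 9.90 in L26, and Lrrc4c 11.36, 11.25 and 11.26 in wild type and 11.17, 11.08 and 11.13 in L26. Both were separated downward, with differences of -0.15 and -0.16 (SE 0.06 each) that did not pass. Lrrc4b overlapped, with 9.71, 9.61 and 9.23 in wild type and 9.46, 9.69 and 9.77 in L26. Its difference of 0.12 turned to -0.02 without wild type replicate 3, the array at 9.23. For Lrrc4c the probe sets disagreed. The second, 1456759_at, read 9.75, 9.91 and 10 in wild type and 10.13, 10.16 and 10.35 in L26, a difference of 0.33 (SE 0.08, adjusted p = 0.0674 over probe sets). Its ratio to the brightest rose by 0.49 (SE 0.11, adjusted p = 0.0447, limma), so the 2 probe sets changed unequally. That call, too, held without wild type replicate 3 (adjusted p = 0.0492) and was lost without any 1 of the other arrays (0.0603 to 0.188).

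Contactins are GPI-anchored adhesion molecules, and Caspr proteins are their partners around nodes of Ranvier and at synapses. Cntnap2 was lower on all 3 probe sets, by -0.26 to -0.13. The brightest read 10.18, 10.09 and 10.20 in wild type and 9.99, 9.97 and 10.05 in L26, separated, with -0.15 (SE 0.05, adjusted p = 0.155, limma). Cntn1, on a probe set far above the upper quartile of the arrays (9.06), differed by -0.05 (95% interval -0.16 to 0.06). Cntn2, which oligodendrocytes express too, had 0.12 (95% interval -0.02 to 0.26) on the brightest probe set and -0.24 on the next, whose groups did not overlap (8.56, 8.82 and 8.52 against 8.30, 8.50 and 8.39). Cntnap1, on a dim probe set (6.68 in wild type), had -0.10 (95% interval -0.26 to 0.06).

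Ncam1, Ncam2 and the SynCAM genes Cadm1 and Cadm3 encode immunoglobulin-domain molecules that bind across the cleft. The brightest Ncam1 probe set read 11.58, 11.47 and 11.47 in wild type and 11.40, 11.33 and 11.39 in L26, separated, with -0.13 (SE 0.05, adjusted p = 0.215, limma). A second one, 1426865_a_at, read 10.90, 10.77 and 10.96 in wild type and 10.58, 10.54 and 10.47 in L26 and fell by 0.35 (SE 0.07, 1.27-fold lower, adjusted p = 0.0217 over probe sets, limma). The 7 Ncam1 probe sets spread from -0.35 to 0.19, and the ratio of this probe set to the brightest did not pass (-0.21, adjusted p = 0.243, limma), so a difference between the 2 was not shown. The call was lost without wild type replicate 1 (adjusted p = 0.067) or 3 (0.0713) or L26 replicate 2 (0.0722) or 3 (0.097). Oligodendrocyte markers lay higher on the same L26 arrays, and their part was not tested.

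Cadm3 showed the same arrangement. Its brightest probe set differed by -0.04 (95% interval -0.15 to 0.07). The second, 1418922_at, read 10.52, 10.51 and 10.45 in wild type and 10.21, 10.21 and 10.19 in L26, tight and well separated groups, and fell by 0.29 (SE 0.05, 1.22-fold lower, adjusted p = 0.0175 over probe sets, limma). The ratio of the 2 changed by -0.25 (SE 0.07), which did not pass (adjusted p = 0.102, limma). The third probe set, 1418921_at, differed by -0.04 (95% interval -0.20 to 0.11), close to the brightest, and did not share the fall of 1418922_at. The fall of 1418922_at was lost without wild type replicate 1 (adjusted p = 0.0586) or 2 (0.0634) or L26 replicate 2 (0.0642) or 3 (0.078). Ncam2 and Cadm1 had differences of -0.04 and 0.05 with overlapping groups.

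**Figure D4:**
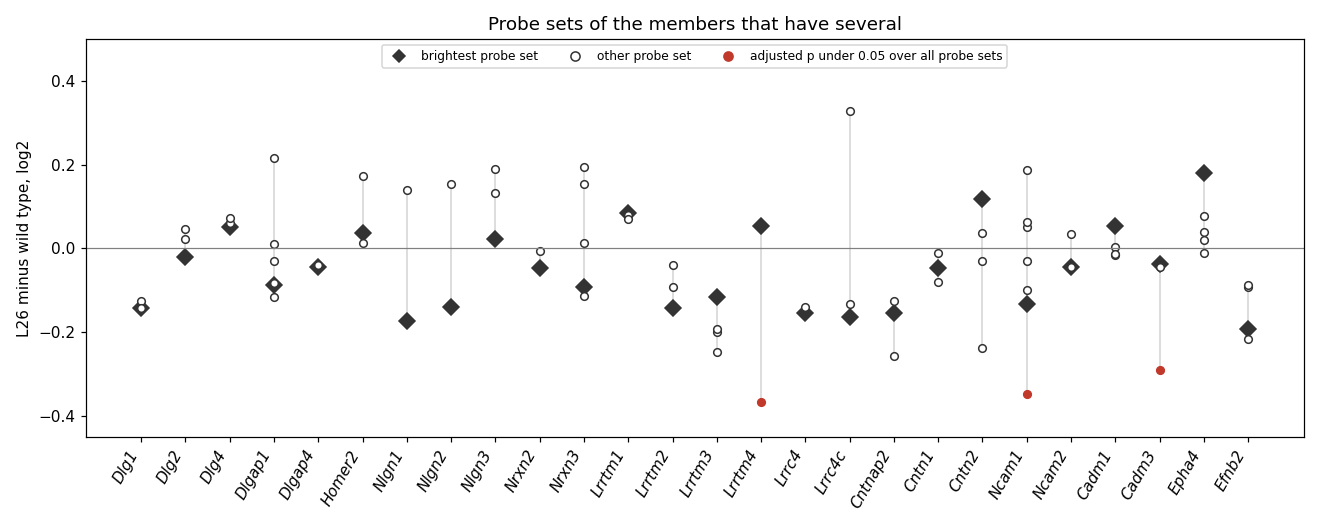
Differences in log2 signal, L26 minus wild type, for every probe set of the 26 members that have several (diamonds the brightest, circles the others, red past an adjusted p of 0.05 over all probe sets). The red circles of Lrrtm4, Ncam1 and Cadm3 lie at -0.37, -0.35 and -0.29 while the diamonds of the same genes lie between -0.13 and 0.05.

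In all, the members had 96 probe sets. At this level 1 rose (that of Homer3), 3 fell (1 each of Lrrtm4, Ncam1 and Cadm3) and 92 did not pass, beside 3.92% of all probe sets that passed and 1.94% that fell. Of the 26 members with several probe sets, 10 had all of them lower in L26 (Dlg1, Dlgap4, Nrxn2, Lrrtm2, Lrrtm3, Lrrc4, Cntnap2, Cntn1, Cadm3 and Efnb2), 4 had all of them higher (Dlg4, Homer2, Nlgn3 and Lrrtm1) and 12 were mixed. These counts rest on signs alone, also of small differences (-0.05 to -0.01 for Nrxn2, 0.01 to 0.17 for Homer2). Dim probe sets count too, such as 1425126_at of Ncam1 (5.34 in wild type). The same count over all genes was not made.

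The stretch of DNA before the start of a gene is shown for Homer3, the member that rose, for Efnb2, the one nearest to the threshold, and for Lrrtm4 and Cadm3, which fell on 1 probe set. DREAM is known to bind downstream regulatory elements with the core GTCA. The sequences are RefSeq windows of GRCm38.p6, the 250 bases before the annotated start, 5′ to 3′ on the gene's strand, with each GTCA on either strand in capitals (TGAC is the other strand). Homer3 lies at chr8:70282749-70282998 (+), Efnb2 at chr8:8661243-8661492 (-), the first of the Lrrtm4 windows at chr6:80018627-80018876 (+) and Cadm3 at chr1:173367696-173367945 (-).
Homer3: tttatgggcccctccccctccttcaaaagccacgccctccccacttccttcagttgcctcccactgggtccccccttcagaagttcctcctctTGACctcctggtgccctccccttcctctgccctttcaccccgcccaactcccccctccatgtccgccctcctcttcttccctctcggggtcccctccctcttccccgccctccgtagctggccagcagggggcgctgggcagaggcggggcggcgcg
Efnb2: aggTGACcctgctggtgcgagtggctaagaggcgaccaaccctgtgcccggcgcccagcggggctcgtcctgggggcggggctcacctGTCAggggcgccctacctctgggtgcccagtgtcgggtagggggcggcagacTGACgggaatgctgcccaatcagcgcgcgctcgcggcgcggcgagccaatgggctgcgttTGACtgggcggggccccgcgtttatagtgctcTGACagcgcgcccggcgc
Lrrtm4: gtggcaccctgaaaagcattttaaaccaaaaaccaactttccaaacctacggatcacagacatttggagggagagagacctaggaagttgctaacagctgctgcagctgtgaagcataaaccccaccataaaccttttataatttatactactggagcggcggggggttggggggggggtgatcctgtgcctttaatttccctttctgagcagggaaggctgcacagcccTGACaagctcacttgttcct
Cadm3: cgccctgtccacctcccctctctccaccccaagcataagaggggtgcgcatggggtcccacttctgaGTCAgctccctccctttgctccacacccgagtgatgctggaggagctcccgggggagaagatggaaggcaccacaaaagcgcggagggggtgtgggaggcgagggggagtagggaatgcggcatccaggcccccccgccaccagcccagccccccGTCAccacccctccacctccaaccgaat

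Homer3 holds 1 GTCA core, Efnb2 5, this Lrrtm4 window 1 and Cadm3 2. The median window of the whole table holds 2, and 80.2% of all windows hold at least 1, so having a core sets none of these genes apart. How many of all windows hold as many as the 5 of Efnb2 was not counted. Longer matches were sought on both strands with 4 strings of 7 letters that start with the core. After the core they have any pair of purines and then a G. The first is GTCAAGG, the second differs from it by a change of the first purine, GTCAGGG, the third by a change of the other purine, GTCAAAG, and in the last both are changed, GTCAGAG. Efnb2 has 2 of them and this Lrrtm4 window 1, while Homer3 and Cadm3 have 0. Of the 26 measured members with a window, 4 hold such a match (Efnb2, Lrrtm4, Cntn1 and Dlg3), or 11.6% of their 43 windows against 14.2% of all 32851 windows. The cAMP response element TGACGTCA, which contains both strands of the core, was in 0 of the 43 and in 1.55% of all. A match of letters is no binding site, and its absence from this window says nothing about the factor. Bases after the annotated start were not searched. No window was at hand for Cadm1, Cntnap1, Dlgap2, Efnb3, Lrrtm2, Ncam1, Nlgn3, Nrxn2 and Shank1.

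Other genes of the same machinery, outside the member list, ranged more widely, from -0.91 to 0.77 against -0.20 to 0.34 for the members. Their list was longer, and their median absolute difference was 0.1, beside 0.093 for the members and 0.073 over all genes. A difference of more than 0.2 was found in 11.8% of them and in 12% of all genes. Of 99 listed, 93 were measured, and 3 rose, 5 fell and 85 did not pass, where 5.19% of all genes were called. With arrays centred on their medians 3 rose and 9 fell. Lin7c, the gene of a small PDZ protein that joins CASK and receptor complexes, read 10.35, 10.22 and 10.31 in wild type and 10.96, 11.15 and 11.07 in L26. It rose by 0.77 (SE 0.07, adjusted p = 0.000387, limma), and its other probe sets rose by 0.77 to 1. Magi1, another PDZ scaffold gene, rose by 0.44 (SE 0.06, adjusted p = 0.004, limma), although its other probe sets had -0.08 to 0.16. These were the only calls among 25 other scaffold genes.

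Of 55 other adhesion genes 5 fell, 1 rose and 49 did not pass, beside 2.57% of all genes that fell and 2.63% that rose. Cbln1 and Cbln4 encode secreted cerebellins that bridge presynaptic neurexins to postsynaptic receptors. Cbln1 read 9.37, 9.37 and 9.33 in wild type and 8.25, 8.61 and 8.49 in L26 and fell by 0.91 (SE 0.09), with -1.07 and -0.50 on its other probe sets. Cbln4 went from 9.69, 9.69 and 9.65 to 8.81, 8.94 and 8.87, a fall of 0.80 (SE 0.05, adjusted p = 0.000129, limma). In neither gene did the groups come near each other. Ntng1, whose product is an axonal partner of the Lrrc4c protein, fell by 0.52 (SE 0.08), the interleukin receptor relative Il1rapl1 by 0.50 (SE 0.07) and the contactin gene Cntn6 by 0.46 (SE 0.07). Nfasc, the gene of neurofascin at nodes of Ranvier and the axon initial segment, rose by 0.37 (SE 0.06), with 0.03 and 0.24 on its other probe sets. All 8 calls held when any 1 array was left out. Ntng1 is itself one of the 10 border markers, 7 of which fell on these arrays, and the oligodendrocyte markers that rose share the direction of Nfasc. Their part in these differences was not tested. Of 13 other Eph receptor and ephrin genes, 0 passed (limma, 2 at an unadjusted p under 0.05, both higher).

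**Figure D5:**
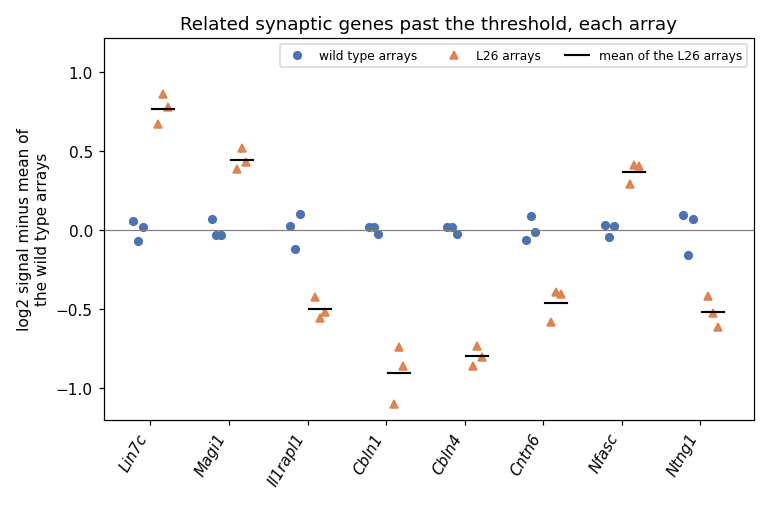
Log2 signal of the 8 related genes past the threshold in each array, minus the mean of the 3 wild type arrays (circles wild type, triangles L26, black line the L26 mean). Lin7c, Magi1 and Nfasc lie above their wild type arrays, by 0.77, 0.44 and 0.37 on average, and the other 5 below, down to -0.91 for Cbln1.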

How the data were processed

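The authors deposited a table of log2 expression values with a row per probe set and a column per array. Per the submitters' processing notes RMA and the affy package were used, in versions not stated there. RMA generally corrects background, makes the arrays' distributions alike and combines the probes of a set, which can understate fold differences of dim transcripts, and gives no detection calls. Arrays have no depth, and with 3 per group their number limits the precision.

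Of 45101 probe sets, 64 array controls were left out. The platform annotation gave 34945 of the other 45037 a single symbol, 932 several and 9160 none, and 34741 were found in the RefSeq gene table with 0 symbols that differed. The brightest single-symbol probe set stood for each of 18193 genes.

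The fit used limma 3.58.1 under R 4.3.3 (lmFit, eBayes, two-sided, Benjamini-Hochberg, threshold 0.05), over genes and again over probe sets. The log ratio of each probe set to the brightest of its gene was fitted likewise, a test added after seeing the data. Intervals are 95% intervals of the fit, and values after ± are SDs. The code was first tested on simulated data.

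Every member was to be accounted for, with values in every array for members past the threshold on any probe set and for the nearest outside it, and all related genes past the threshold were to be named (at most 10 per list). Members, related genes and markers were chosen with earlier results of these data known. Alternatives were a replicate block, each array left out, repeated quantile normalization, median centring, a filter on the dimmest 40%, an intensity trend and robust prior, array weights, no probe sets ending in _x_at or _s_at, the mean over a gene's probe sets and a threshold of 0.1.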

Additional observations from a re-analysis of the deposited data

How the results depend on the processing

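Homer3 kept its direction under each of the 14 alternatives that give it a new value (0.28 to 0.39) and passed in 9 of them. The 5 losses were all arrays left out, so the count of scaffold members ran from 0 to 1 over the arrays left out. The count of adhesion members stayed at 0 in all settings except the intensity trend with robust prior, where 1 passed (Epha4). All genes past the threshold numbered 401 to 696 with an array left out, against 945, and 1734 at an adjusted p of 0.1. The related genes past it numbered 8 whichever array was left out and 13 at 0.1. Members that were not called changed sign at most in 6 cases under a setting (the mean of all probe sets), and none that was called did.

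The replicate numbers of the groups were not shown to pair the samples, with correlations of same-numbered deviations of 0.029, -0.093 and 0.164. With the replicate number as a block, 635 genes passed, and the same counts of scaffold (1), adhesion (0) and related genes (8) as without it. Of the member probe sets that fell, that of Ncam1 missed the threshold under the block (adjusted p = 0.0521). Among the members that did not pass, the 95% interval of the log2 difference reached farthest from 0 for Dlgap2 (-0.45 to 0.06).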
